A study of Homo sapiens with 12 samples.

Results

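Selenoprotein mRNAs are messages in which a UGA codon inside the reading frame is read as the amino acid selenocysteine. The 10 described here, GPX1, GPX4, TXNRD2, SELENOT, SELENOK, SELENOF, SELENOS, SELENOW, SELENOH and SEPHS2, were taken from the count table by gene symbol. All 10 were found among the 15798 genes of the count table, and all 10 were among the 10663 genes with enough input counts to be tested. The counts came from ribosome profiling (Ribo-seq) of HCT116, a human colorectal cancer cell line, in 4 groups with 3 biological replicates each. Cells were given DMSO, the solvent, or 100 nM trametinib, an inhibitor of the MEK1/2 kinases, for 24 h. From each treatment, input RNA (DMSO_IN and TRAM_IN, broken by alkaline fragmentation) and ribosome-protected fragments (DMSO_RPF and TRAM_RPF, left after RNase I digest) were sequenced. Cycloheximide was added briefly before lysis in both treatments, and all libraries were made from the same cell line.

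Selenocysteine is inserted where a UGA would otherwise end translation. The insertion depends on a hairpin in the 3′ untranslated region, the SECIS element, on its binding protein SECISBP2, and on the elongation factor EEFSEC, which delivers the selenocysteine tRNA. Decoding of this UGA is known to be slow and incomplete, and when it fails the ribosome stops there. Most selenoproteins are oxidoreductases with selenocysteine in the active site. GPX1 removes hydrogen peroxide, GPX4 removes lipid hydroperoxides in membranes, and TXNRD2 keeps mitochondrial thioredoxin reduced. SELENOT, SELENOK, SELENOF and SELENOS are proteins of the endoplasmic reticulum, SELENOW and SELENOH are small thioredoxin-fold proteins, and SEPHS2 makes the selenophosphate from which selenocysteine is built.

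The recoded codon lies at very different places in these mRNAs, and its surroundings are shown because the baseline footprint values below were set against that place. Each line gives up to 12 bases on either side in the sense direction, from Gencode release 44 on assembly GRCh38, with the UGA written as TGA in capitals.

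SELENOW: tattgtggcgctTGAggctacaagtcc

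SEPHS2: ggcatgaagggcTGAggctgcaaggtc

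GPX1: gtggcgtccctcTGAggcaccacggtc

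GPX4: gtggcctcccagTGAggcaagaccgaa

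SELENOT: atttgtgtttccTGAggttataggcgg

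SELENOH: cattgcactagcTGAcgcgtctatggg

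SELENOF: gaagtttgtggaTGAaaattgggaagg

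SELENOK: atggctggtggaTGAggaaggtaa

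SELENOS: tcatctggcggaTGAggctaa

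TXNRD2: gtgacaggctgcTGAgggtaa

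In SELENOK, SELENOS and TXNRD2 the window ends early, at the stop codon itself. The base after the UGA was G in 8 of the 10, A in SELENOF and C in SELENOH. The ordinary stop codon was TAA in 5, TAG in 4 and TGA only in SEPHS2.

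The codon was the 13th of 87 in SELENOW (chr19:47780732-47780734, plus strand) and the 60th of 448 in SEPHS2 (chr16:30445548-30445550, minus strand). It was codon 49 of 203 in GPX1 (chr3:49358132-49358134, minus strand), 49 of 195 in SELENOT (chr3:150622392-150622394, plus strand), 44 of 122 in SELENOH (chr11:57741816-57741818, plus strand) and 73 of 197 in GPX4 (chr19:1105403-1105405, plus strand). These 6 codons came after 13.2% to 36.5% of the coding sequence. In SELENOF it was codon 96 of 165 (chr1:86880690-86880692, minus strand), after 57.6%. The last 3 lay at the very end, at codon 92 of 94 in SELENOK (chr3:53885831-53885833, minus strand), 188 of 189 in SELENOS (chr15:101272777-101272779, minus strand) and 523 of 524 in TXNRD2 (chr22:19877111-19877113, minus strand). All of these positions are exonic and inside the annotated coding sequence. The counts are per gene symbol, so reads before and after the UGA were added together. Not every annotated transcript holds the codon, with 1 of 4 basic transcripts in SELENOT and 10 of 13 in GPX1. The coding sequence of GPX1 also overlaps another annotated gene without a symbol, and whether reads were shared was not tested.

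**Figure D1:**
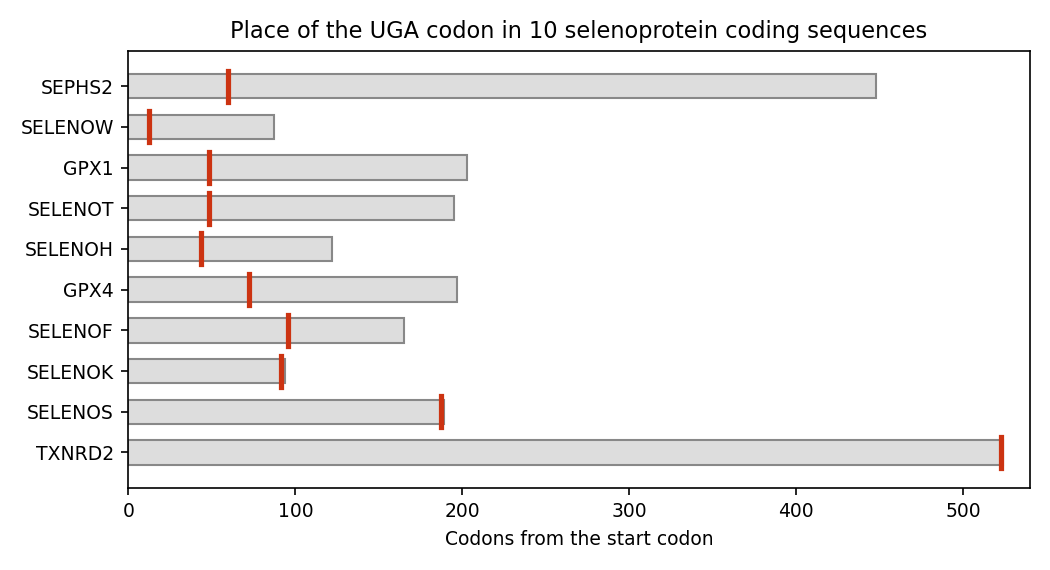
Coding sequences of the 10 selenoprotein mRNAs drawn to scale in codons from the start codon, with the UGA codon as a red line. SELENOW has 87 codons and TXNRD2 524, and the UGA sits at codon 13 in SELENOW and at codon 523 in TXNRD2.

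The input libraries held 2276693 to 2845568 counts and the footprint libraries 10127477 to 19181588. The selenoprotein mRNAs had 18 to 1042 counts each in an input library and 105 to 4214 in a footprint library. As a check of treatment, 8 of 8 known ERK target genes fell in input and in footprints, led by DUSP6 at −7.63 ± 0.36 (SE) log2 in input. Of 8 epithelial markers 6 were tested, while VIL1 and LGALS4 had at most 2 counts in any library. Of 9 markers of blood and stromal cells only COL1A1 was tested, and their summed level was 6.36 to 16.0 CPM (counts per 1000000). Both libraries of DMSO replicate 1 stood apart from the other DMSO libraries, and results are given without them where they matter. Gene levels below are CPM scaled by the trimmed mean of M-values (TMM), so a change shared by all mRNAs cannot be seen, and fewer cells and less RNA per cell cannot be told apart.

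At baseline the glutathione peroxidases were the most abundant of these mRNAs per length. Input in DMSO came to 577 CPM per kb of coding sequence for GPX4, 288 for GPX1 and 261 for SELENOF, and TXNRD2 was lowest with 8.92. In footprints the order was different, with SELENOF first at 361 CPM per kb, GPX4 at 212 and GPX1 at 153. SELENOW, ahead of SELENOK in input (179 against 48.5 CPM per kb), was behind it in footprints (46.8 against 112). The 10 mRNAs together took 0.0936% ± 0.0110 (SD, n = 3) of DMSO input counts and 0.0551% ± 0.0112 of DMSO footprint counts. Under trametinib the shares were 0.0823% ± 0.00512 and 0.0486% ± 0.00367.

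**Figure D2:**
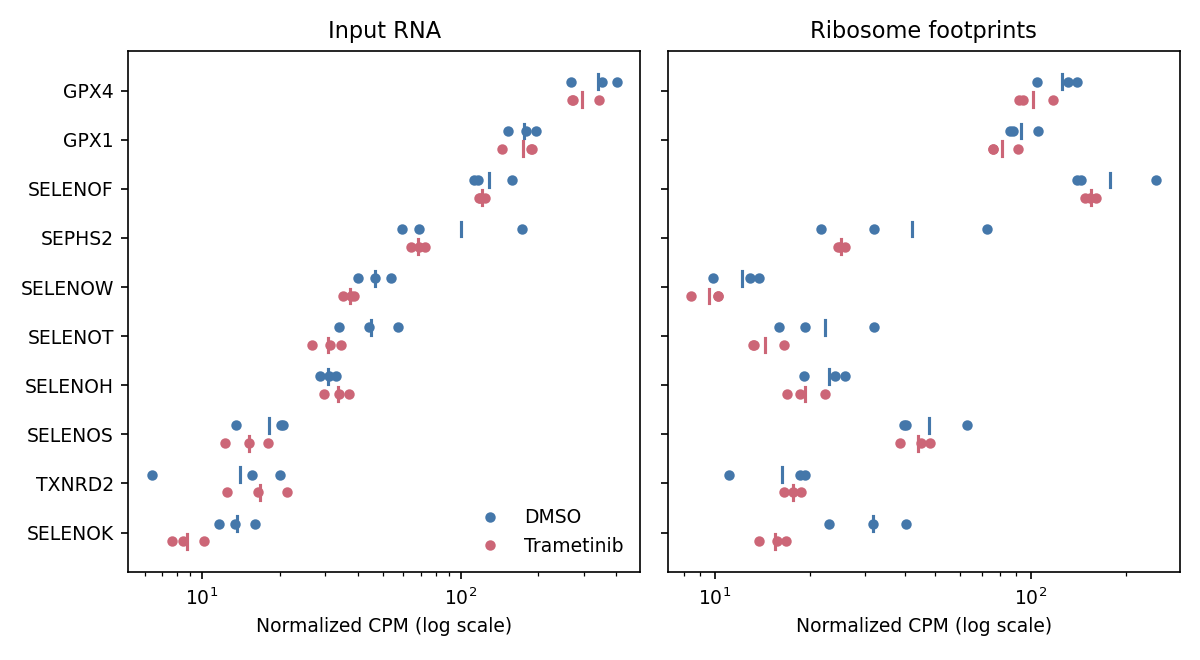
Normalized CPM (log axis) of each selenoprotein mRNA in the 3 DMSO (blue) and 3 trametinib (red) libraries of input and of footprints, with short lines at the means. In both panels the SELENOK trametinib points lie below all DMSO points, and 1 DMSO library of SEPHS2 stands far to the right, at 172 CPM in input and 73.0 CPM in footprints.

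Ribosome density was the number of footprints per input, where 1 is close to the middle of all genes. In DMSO it was low for 6 of the selenoprotein mRNAs and high for 2 (adjusted p below 0.05, edgeR quasi-likelihood test with Benjamini-Hochberg adjustment over all genes). A call was common here, with 61.8% of all tested genes called, 31.0% lower and 30.8% higher. The members' place within that spread is therefore given beside each value, as a percentile among all tested genes. The range among the 10 ran from 0.261 footprints per input in SELENOW to 2.68 in SELENOS.

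Both glutathione peroxidases carried few footprints for their mRNA. GPX4 had 0.373, 0.523 and 0.260 footprints per input in the 3 DMSO replicates, a log2 density of −1.44 ± 0.17 (SE, adjusted p = 6.57e-06, percentile 9.3). GPX1 had 0.591, 0.565 and 0.451, a log2 density of −0.91 ± 0.15 (adjusted p = 9.80e-05, percentile 18.9). All 6 values lay below 1. The mitochondrial thioredoxin reductase TXNRD2 had 1.73, 1.24 and 0.929 footprints per input, on both sides of 1, and its log2 density of 0.22 ± 0.32 did not pass the test (adjusted p = 0.554). TXNRD2 had few counts, with 18 to 52 per input library, as did SELENOK, with 18 to 45.

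The 4 mRNAs of endoplasmic reticulum proteins differed widely. SELENOS, which encodes a partner of the ATPase VCP in the removal of misfolded proteins, had 3.12, 1.94 and 2.98 footprints per input in DMSO, a log2 density of 1.40 ± 0.22 (adjusted p = 7.89e-05, percentile 94.6). SELENOK, whose protein works with the palmitoyltransferase ZDHHC6, had 2.52, 2.35 and 1.98, a log2 density of 1.21 ± 0.22 (adjusted p = 2.47e-04, percentile 91.5). No replicate of either was below 1.94 footprints per input. SELENOF, whose protein binds the glycoprotein folding sensor UGGT1, had 1.59, 1.2 and 1.28 and a log2 density of 0.47 ± 0.20 (adjusted p = 0.0546). SELENOF was called higher in 7 of 21 settings of the analysis, among them without DMSO input replicate 1 (0.64, adjusted p = 0.0173), without DMSO footprint replicate 2 (0.61, adjusted p = 0.0208) and without DMSO footprint replicate 3 (0.60, adjusted p = 0.0229), and was at 0.14 (adjusted p = 0.415) without DMSO footprint replicate 1. In trametinib it was at 0.36 (adjusted p = 0.128), called in 3 of 21 settings. SELENOT, a thioredoxin-fold protein of the same compartment, was on the other side, with 0.559, 0.361 and 0.568 and a log2 density of −1.0 ± 0.24 (adjusted p = 0.00254, percentile 16.8).

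SELENOW had the lowest density of the 10, with 0.246, 0.295 and 0.241 footprints per input and a log2 density of −1.94 ± 0.17 (adjusted p = 3.11e-07, percentile 4.4). The 3 replicates were close together, and no replicate of another member reached as low except GPX4 in DMSO replicate 3. SELENOH, a nucleolar protein, had 0.622, 0.904 and 0.731 and a log2 density of −0.42 ± 0.16 (adjusted p = 0.0376, percentile 33.7). The SELENOH call was lost in 7 of 21 settings, with adjusted p up to 0.125. Among these settings were those without DMSO input replicate 1 or 3, without DMSO footprint replicate 1 or 3, and without both libraries of DMSO 1. SEPHS2 had 0.424, 0.464 and 0.367, a log2 density of −1.24 ± 0.40 (adjusted p = 0.0147, percentile 12.2). For SEPHS2 the call was lost without DMSO input replicate 1 (−0.60, adjusted p = 0.155), without DMSO footprint replicate 2 (−1.08, adjusted p = 0.0558) and without DMSO footprint replicate 3 (−0.92, adjusted p = 0.0538), and it held at −1.30 (adjusted p = 7.73e-06) without both libraries of DMSO 1. GPX1, GPX4, SELENOT, SELENOW, SELENOK and SELENOS kept their calls in 21 of 21 settings.

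The same members were low and high under trametinib. In SELENOS the 3 trametinib replicates had 2.67, 3.66 and 2.55 footprints per input, in SELENOK 1.36, 2.20 and 1.87, and in SELENOW 0.264, 0.270 and 0.240. GPX4 had 0.348, 0.437 and 0.269, and GPX1 had 0.527, 0.488 and 0.403. The 6 lower and 2 higher calls in trametinib fell on the same genes as in DMSO, against 63.5% of all tested genes called (30.1% lower, 33.4% higher). SELENOK had the highest adjusted p of the 8, at 0.82 ± 0.24 log2 (adjusted p = 0.00907), and lost its call without trametinib input replicate 2 (0.67, adjusted p = 0.0618). Across the 10 genes the log2 densities in the treatments, from separate libraries but 1 fit, gave Pearson r = 0.990 and the same rank order. These densities ran from −1.94 to 1.40 in DMSO, while their changes ran only from −0.39 to 0.13. With that spread a high r comes readily, and r over all genes was not computed.

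**Figure D3:**
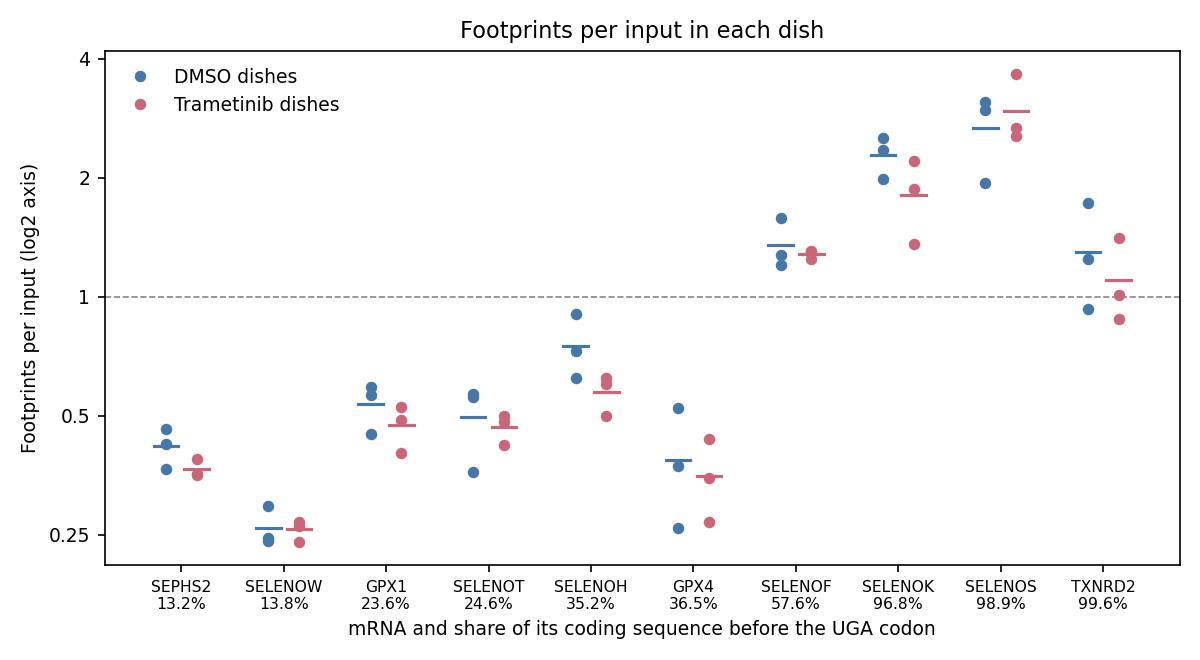
Footprints per input (log2 axis) of each selenoprotein mRNA in the 3 DMSO (blue) and 3 trametinib (red) replicates, ordered by the share of the coding sequence that lies before the UGA codon, with lines at the means. From SEPHS2 to GPX4 (13.2% to 36.5%) all points lie below 1, and the points of SELENOK and SELENOS (96.8% and 98.9%) all lie above 1.

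Among the 10, density was lower where the UGA came early. The 6 with the UGA before the 50% mark of the coding sequence (GPX1, GPX4, SELENOT, SELENOW, SELENOH and SEPHS2) had a median log2 density of −1.12 in DMSO, with a range of −1.94 to −0.42. The 4 with a later UGA (SELENOF, SELENOK, SELENOS and TXNRD2) had a median of 0.84 and a range of 0.22 to 1.40. The 50% mark was chosen after the values were seen, and no member had its UGA between GPX4 at 36.5% and SELENOF at 57.6%. With input and footprint libraries matched by number, every early member was below every late member in each of the 6 replicates. The narrowest gap was in DMSO replicate 3, between SELENOH at 0.731 and TXNRD2 at 0.929 footprints per input. Over the 10 genes, density and the percentage of coding sequence before the UGA gave Pearson r = 0.900 and Spearman rho = 0.770 in DMSO, and 0.903 and 0.770 in trametinib. These correlations are across genes measured in the same libraries, and genes are not independent replicates.

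Coding length also went with density. Over all tested genes the median log2 density in DMSO was 0.79 for up to 200 codons (1249 genes), 0.31 for 201 to 400 codons (2865 genes) and −0.24 for longer ones (6473 genes). GPX4, SELENOT, SELENOW and SELENOH have at most 200 codons and all lay below the lower quartile of that class, 0.13. GPX1 at −0.91 was below the lower quartile of its class (−0.37), as was SEPHS2 at −1.24 (−0.89). Of the late members, SELENOS at 1.40 was above the upper quartile of its class (1.36), and SELENOK, SELENOF and TXNRD2 were between the quartiles. The part of length in the pattern was not tested further.

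The other 8 selenoprotein mRNAs that could be tested did not follow this order as a whole. SELENON and SELENOP have 2 and 10 UGA codons in the transcript used, the first after 21.4% and 15.2% of the coding sequence. Their log2 densities in DMSO by the edgeR test were −0.97 (adjusted p = 4.92e-04) and −0.37 (adjusted p = 0.190), both below 0. The places of their later UGA codons were not set against density, so neither gene counts as early or late here. The remaining 6 have a single UGA. TXNRD1, TXNRD3 and SELENOO carry it at the very end, after 99.7%, 99.7% and 99.6% of the coding sequence. Their log2 densities in DMSO were nevertheless −0.47 (adjusted p = 0.259, not passing), −0.50 (adjusted p = 0.00567) and −0.97 (adjusted p = 7.96e-04). MSRB1 (81.0%) and SELENOI (97.2%) were high, at 1.71 and 0.96. SELENOM, with an early UGA (32.4%), was at 0.29 and did not pass (adjusted p = 0.189). Within their length classes TXNRD1, TXNRD3 and SELENOM lay between the quartiles. SELENOO lay below the lower quartile of its class, and MSRB1 and SELENOI lay above the upper quartiles of theirs. Over these 6 genes Pearson r was −0.284 and Spearman rho −0.638. Over all 16 genes the values were 0.609 and 0.424.

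**Figure D4:**
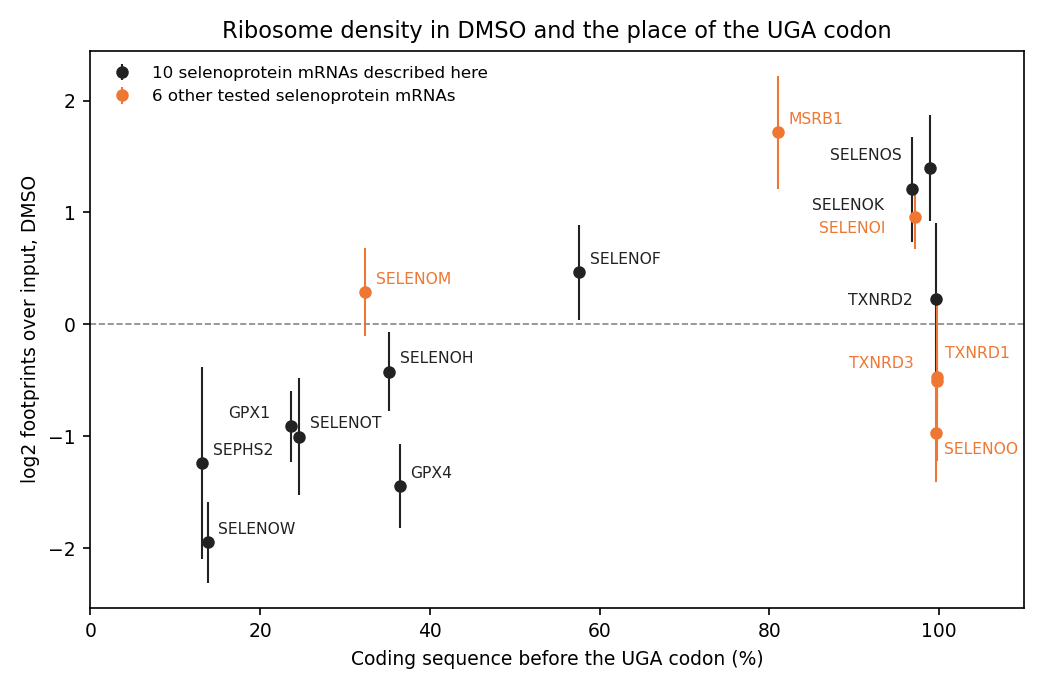
Log2 footprints over input in DMSO (vertical axis, with 95% intervals) against the percentage of the coding sequence before the UGA codon, for the 10 selenoprotein mRNAs (black) and 6 others with 1 UGA (orange). The lowest black point is SELENOW at −1.94 (13.8%) and the highest is SELENOS at 1.40 (98.9%). The leftmost black point is SEPHS2 at −1.24 (13.2%) and the rightmost is TXNRD2 at 0.22 (99.6%). The orange points TXNRD1, TXNRD3 and SELENOO lie below 0 at the right edge.

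Under trametinib the footprints of 2 of the 10 fell, SELENOK and SELENOT, and those of none rose. This compares with 25.6% of all tested genes lower and 23.9% higher (49.4% called), so the members' share of 2 in 10 was no higher than the background. The estimates were below 0 for 9 of the 10, with a median of −0.35 log2 against −0.01 over all genes. Library totals in place of TMM raised the median of all genes to 0.16 and that of the members to −0.17, and left only SELENOK called.

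SELENOK footprints were 40.3, 31.6 and 23.0 CPM in DMSO and 13.8, 16.8 and 15.8 CPM in trametinib. The groups did not overlap, which was so for 26.8% of all genes in this direction and 33.0% in the other. The change was −1.10 ± 0.21 log2 (adjusted p = 0.00251), a fall to 0.467 of the DMSO level, and the 95% interval ran from −1.57 to −0.63. This call held in 15 of 15 settings, at −0.87 without both libraries of DMSO 1. SELENOK input was 16.0, 13.4 and 11.6 CPM in DMSO and 10.2, 7.65 and 8.43 CPM in trametinib, again without overlap. The input difference of −0.63 ± 0.26 log2 did not pass the test (adjusted p = 0.0779, unadjusted p = 0.0291 from the edgeR fit), on 18 to 45 counts per library.

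SELENOT footprints were 31.9, 16.0 and 19.3 CPM in DMSO and 13.2, 16.6 and 13.3 CPM in trametinib. The groups overlapped, and the high value was DMSO replicate 1. The change was −0.71 ± 0.25 log2 (adjusted p = 0.0407), and it held in only 7 of 15 settings. It came to −0.37 (adjusted p = 0.0524) without DMSO footprint replicate 1, and the call was also lost without any 1 of the trametinib footprint replicates (adjusted p = 0.123, 0.0598 and 0.128). SELENOT input was 57.2, 44.2 and 34.0 CPM in DMSO and 31.3, 34.4 and 26.6 CPM in trametinib, a difference of −0.54 ± 0.21 log2 that did not pass the test (adjusted p = 0.0710). Without DMSO input replicate 3 it did (−0.70, adjusted p = 0.0150).

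SEPHS2 had the largest SD relative to its mean among the 10 in DMSO footprints and in DMSO input. Its input was 172, 69.0 and 59.1 CPM in DMSO and 72.9, 68.8 and 64.1 CPM in trametinib, and its footprints were 73.0, 32.0 and 21.7 CPM in DMSO and 25.8, 24.6 and 24.9 CPM in trametinib. DMSO replicate 1 was far above all other libraries in both assays, while the 3 trametinib libraries were close together. The footprint difference of −0.82 ± 0.38 log2 did not pass the test (adjusted p = 0.0986) and was −0.14 without DMSO footprint replicate 1, but passed without DMSO footprint replicate 3 (−1.13, adjusted p = 0.0124). The input difference of −0.54 ± 0.32 (adjusted p = 0.223) changed to 0.11 without DMSO input replicate 1.

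For the glutathione peroxidases no change passed. GPX4 footprints were 131, 140 and 105 CPM in DMSO and 94.6, 118 and 91.9 CPM in trametinib, a difference of −0.37 ± 0.15 log2 (adjusted p = 0.0729). The GPX4 ranges overlapped, and without DMSO footprint replicate 3 the difference passed (−0.48, adjusted p = 0.0246). GPX4 input differed by −0.20 ± 0.17 (adjusted p = 0.409). GPX1 input was almost the same in both treatments, 175 ± 21.7 (SD, n = 3) and 174 ± 25.2 CPM, with a 95% interval of −0.36 to 0.35 log2 for the difference.

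SELENOW input was lower in all 3 trametinib libraries (38.8, 37.8 and 35.0 CPM) than in DMSO (40.1, 46.7 and 53.7 CPM), but the difference of −0.32 ± 0.18 log2 did not pass (adjusted p = 0.188). SELENOK and SELENOW were the only 2 members without overlap in input, while 23.6% of all genes were lower and 23.0% higher in this way. SELENOW and SELENOH footprints differed by −0.40 (adjusted p = 0.0881) and −0.32 (adjusted p = 0.135). Both passed without DMSO footprint replicate 1, at −0.52 (adjusted p = 0.00912) and −0.43 (adjusted p = 0.0160), so that 3 members were then called with SELENOK. That setting also called more of all 10663 tested genes, 6423 against 5272 with all libraries. For SELENOF, SELENOS and TXNRD2 the footprint differences were −0.27, −0.18 and 0.05 log2 (adjusted p = 0.318, 0.446 and 0.851).

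In input none of the 10 was called, against 32.1% of all tested genes (15.4% higher, 16.8% lower). At an unadjusted p below 0.05 the edgeR fit gave 2, SELENOT and SELENOK, against 42.9% of all tested genes. DESeq2 and limma-trend gave 0 after adjustment, against 27.9% and 32.3% of all tested genes. The estimates ran from −0.63 in SELENOK to 0.27 in TXNRD2, with a median of −0.22.

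Ribosome density under trametinib was not shown to differ from DMSO for any of the 10. The edgeR interaction test called 0, against 0.91% of all tested genes (0.0938% higher, 0.816% lower). DESeq2 and limma-trend also called 0, against 1.73% and 0.882%, and 0 members reached an unadjusted p below 0.05, against 8.81% of all tested genes. All of these shares are small, so 0 of 10 was close to the background. In every member the footprints per input of the treatments overlapped, while 6.56% of all genes were lower and 11.8% higher without overlap. The estimates ran from −0.39 in SELENOK to 0.13 in SELENOS, with a median of −0.12 against 0.07 over all genes. With library totals the median over all genes was 0.18, and 5 of the 10 estimates were below 0 in place of 9. The intervals were wide, from −1.10 to 0.32 log2 for SELENOK, −0.88 to 0.12 for SELENOH, −0.63 to 0.26 for GPX1, −0.61 to 0.42 for GPX4 and −1.43 to 1.01 for SEPHS2. SELENOW had an estimate of −0.00 with an interval of −0.47 to 0.46, which leaves room for changes of about that size in either direction.

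**Figure D5:**
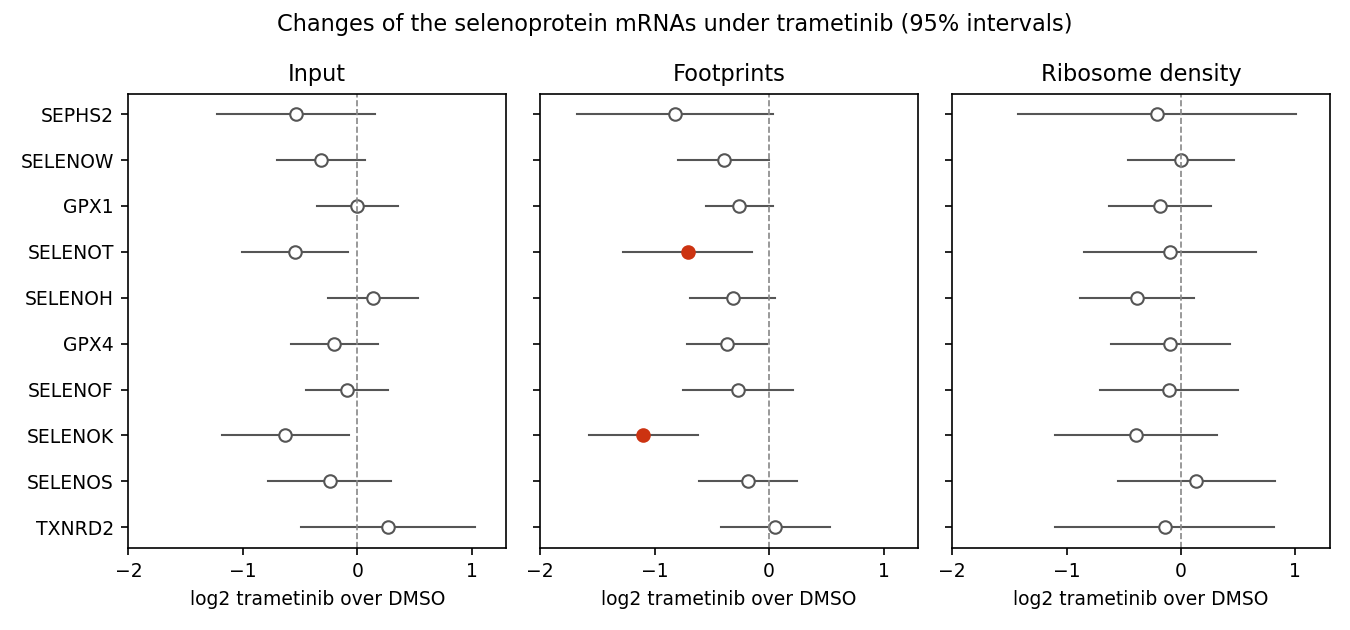
Log2 change under trametinib over DMSO in input, footprints and ribosome density for each selenoprotein mRNA, with 95% intervals, ordered from the earliest to the latest UGA. Filled red points passed the test, which SELENOK (−1.10) and SELENOT (−0.71) did in footprints, and all other points are open.

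Several of the remaining selenoprotein genes rose under trametinib. Of 15 listed, 12 were in the table and 8 were tested, and in input 4 of the 8 rose and none fell by the edgeR test. Among all tested genes 15.4% rose and 16.8% fell in input, and 23.9% rose and 25.6% fell in footprints. SELENOP, the secreted selenium carrier, rose by 2.29 ± 0.21 log2 in input (adjusted p = 4.15e-06) and 2.06 ± 0.22 in footprints. TXNRD1, the cytosolic thioredoxin reductase, rose by 1.02 ± 0.28 in input (adjusted p = 0.0132), MSRB1, a methionine sulfoxide reductase, by 0.96 ± 0.27 (adjusted p = 0.0148) and SELENOM by 0.76 ± 0.18 (adjusted p = 0.00681). In footprints MSRB1, SELENOM and SELENON rose by 0.74, 0.54 and 0.48, and SELENOI, an enzyme of phospholipid synthesis, fell by 0.44 (adjusted p = 0.0101). Without both libraries of DMSO 1 TXNRD1 rose by 1.52 in input and also in footprints, by 1.01 (adjusted p = 1.93e-05). In that setting 6 of the 8 rose and 2 fell in footprints, against 3176 higher and 3247 lower among all 10663 tested genes. None of the 8 was called in the change of density.

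Of 10 genes for selenocysteine synthesis and insertion, 1 rose and 2 fell in input, and 2 rose and 2 fell in footprints (4 and 3 without both libraries of DMSO 1). The shares of all tested genes were 15.4% and 16.8% in input and 23.9% and 25.6% in footprints. Without both libraries of DMSO 1, 3176 rose and 3247 fell in footprints among all 10663 tested genes. SECISBP2L, a relative of the SECIS-binding protein, rose by 0.76 in input and 0.87 in footprints. The tRNA-binding TRNAU1AP rose by 0.58 in footprints. SARS1, which charges the selenocysteine tRNA with serine, fell by 1.10 in input and 1.29 log2 in footprints, its DMSO values being highest in replicate 1. Without both libraries of DMSO 1 it fell by 0.49 (adjusted p = 0.0189) and 0.60 (adjusted p = 1.33e-04). The selenoprotein P receptor LRP8 fell by 0.70 in input, and SEPHS1, a relative of SEPHS2 without selenocysteine, fell by 0.58 in footprints (adjusted p = 0.00880). SECISBP2 and EEFSEC, the core insertion factors, were not called in either, though without both libraries of DMSO 1 SECISBP2 footprints passed (0.30, adjusted p = 0.0491). In baseline density by the edgeR test, 4 of these 10 were lower and 2 higher, against 31.0% and 30.8% of all tested genes. SECISBP2 was among the lower, at −1.32 ± 0.17 log2 (adjusted p = 1.07e-05), and EEFSEC among the higher, at 0.47 (adjusted p = 0.0280). The EEFSEC call was lost without both libraries of DMSO 1 (0.46, adjusted p = 0.0734).

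Of 21 tested redox proteins without selenocysteine, 15 were higher and none lower in baseline density by the edgeR test, where 30.8% of all genes were higher and 31.0% lower. Their median log2 density in DMSO was 0.81, and that of the 10 selenoprotein mRNAs was −0.67. Among all tested genes the median was 0.79 for up to 200 codons, 0.31 for 201 to 400 and −0.24 for longer ones. The redox genes were of mixed length, and CAT, GLRX3 and GPX8 have more than 200 codons. The difference between the lists was not tested. Catalase (CAT) was at 1.10 and the glutaredoxin GLRX3 at 1.25. GPX8, a glutathione peroxidase with cysteine in place of selenocysteine and named after its value was seen, was at 0.81 ± 0.16 (adjusted p = 4.54e-04). For the methionine sulfoxide reductases the order was the other way. MSRB2, without selenocysteine, was at 0.33 (adjusted p = 0.215), and the selenoprotein mRNA MSRB1 was at 1.71. Under trametinib 3 of the 21 rose and 4 fell in input and 5 rose and 4 fell in footprints (7 and 7 without both libraries of DMSO 1). The shares of all tested genes were 15.4% and 16.8% in input and 23.9% and 25.6% in footprints. Without both libraries of DMSO 1, 3176 rose and 3247 fell in footprints among all 10663 tested genes. CAT rose by 0.93 and MSRB2 by 1.13 in input, and GSS and GLRX2 fell by 0.80 and 1.02. Without both libraries of DMSO 1 input fell by 0.55 in GSS (adjusted p = 0.0191) and by 0.71 in GLRX2 (adjusted p = 0.0176). Of 10 tested partners of the endoplasmic reticulum selenoproteins, 6 were higher and 1 lower in baseline density. Under trametinib none of the 10 rose, and 1 fell in each assay, near or below the shares of all tested genes above. ZDHHC6 fell by 0.58 in input (adjusted p = 0.0217), and UFD1 fell by 0.47 in footprints (adjusted p = 0.0407). Without both libraries of DMSO 1, 1 of the partners rose and 2 fell in input, and 2 rose and 3 fell in footprints. In that setting 1767 of all 10663 tested genes rose and 1923 fell in input. None of these 21 and 10 genes was called in the change of density.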

How the data were processed

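The authors removed adapters with the FASTX-toolkit, set aside reads aligning to rRNA and tRNA with Bowtie 1.2.2 (at most 2 mismatches), mapped the rest to the basic set of Gencode release 38, and deposited raw counts of 25 to 35 nt reads inside the reading frames of each gene symbol. The deposited normalized signal is the count over each library's size factor (DESeq2 1.46.0), and its ratio to the counts was constant in 12 of 12 libraries. Columns of the authors' own fold changes, adjusted p-values and gene class marks were not used.

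Tests covered genes that reached 10 counts in 3 or more of the input libraries. Changes in input and in footprints were fitted within 6 libraries each, and ribosome density within all 12, by edgeR 4.0.16 (R 4.3.3) quasi-likelihood tests with TMM scaling, Benjamini-Hochberg adjustment over all 10663 genes and a threshold of 0.05, two-sided. Errors are SE of the log2 value unless named SD. Footprints per input divided the CPM of equally numbered libraries, taken as the same lysate. The labels do not state this, though the study describes setting aside part of the lysate for input before the RNase I digest. The libraries held 0 identical pairs. Alternatives were other scalings, other filters, DESeq2 1.42.0, limma 3.58.1 with a prior count of 2, a replicate block and leaving out each library. Leaving out both libraries of DMSO 1 was added after the data were seen. For input or footprints alone this is the same fit as leaving out that assay's DMSO replicate 1. The 15 settings there therefore repeat that fit. All 10 members could be named, every tested gene of the other selenoprotein and insertion lists, and of each further list at most 5 genes that passed a test, with GPX8 as an addition chosen after its value was seen. Members and lists were chosen with earlier results of these data known. The tests were tried on simulated counts. Coding sequences came from Gencode release 44 on GRCh38, the assembly of release 38 too. Intervals cover the spread between replicates. Input libraries were less deep than footprint libraries, and the effect of this on density was not tested. A listed gene is not reported here and was left out of its list's counts.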

Additional observations from a re-analysis of the deposited data

How the results depend on the processing

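A count of calls was held the same within 1.5 times of the reported count, and a share of counts within the SD of its group mean. By these rules 77 of 84 values from alternatives that kept all libraries or dropped both libraries of DMSO 1 were the same. With 1 library left out, 102 of 108 were the same. The rule for shares cannot fail when 1 of 3 libraries is left out, so those shares tested nothing. Selenoprotein mRNAs called in input rose from 0 to 1 (SELENOT) with no filter and with a replicate block, and those called lower in footprints fell from 2 to 1 with library totals and with limma-trend, where only SELENOK remained. The DESeq2 likelihood ratio test called 3 in footprints, with SEPHS2. Genes called in the change of density over the whole table went from 97 to 184 with DESeq2, 158 with the replicate block and 150 without both libraries of DMSO 1. Library totals called 3577 genes higher and 1944 lower in footprints, against 2545 and 2727 with TMM. With 1 library left out, selenoprotein calls ran from 0 to 1 in input and from 1 (without any 1 trametinib footprint replicate) to 4 in footprints (without DMSO footprint replicate 3, which added GPX4 and SEPHS2), and density changes over the whole table from 50 (without trametinib footprint replicate 2) to 113. The cause of these shifts was not tested.

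The replicate block changed 2 footprint calls, SELENOT (adjusted p = 0.0548) and GPX4 (−0.37, adjusted p = 0.0272, called). In the deviations of 7136 genes from their group means, equally numbered input and footprint libraries gave r = 0.828 for DMSO 1. The others gave 0.176, 0.354, 0.137, 0.0676 and −0.147, and equally numbered DMSO and trametinib libraries 0.0481 to 0.361. On these values the reported tests were left without a block, so they leave out any pairing of input and footprints from the same lysate. With the block the median SE of the density change over all genes was 0.23 log2, against 0.27 without it. The values of footprints per input in each replicate still match libraries by number. The block also called SELENOF density higher in DMSO (0.43, adjusted p = 0.00324) and in trametinib (0.36, adjusted p = 0.0106).

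Signs turned only for estimates that had not passed the test with all libraries and TMM. Without both libraries of DMSO 1, input was 0.0112 for GPX1, −0.0807 for TXNRD2, 0.08 for SELENOF and 0.11 for SEPHS2. Footprints were then −0.163 for TXNRD2, 0.0619 for SELENOF and 0.0794 for SELENOS, and the density change was 0.0205 for SELENOT and 0.0283 for SELENOF. The input and footprint values here equal those without that assay's DMSO replicate 1, so the ranges below include them. With library totals the density change was 0.0106 for GPX4, 0.0112 for SELENOT, 0.0013 for SELENOF and 0.105 for SELENOW. With 1 library left out, input ranged from −0.0956 to 0.116 for GPX1, −0.0807 to 0.616 for TXNRD2, −0.175 to 0.08 for SELENOF and −0.798 to 0.11 for SEPHS2. Footprints ranged from −0.163 to 0.200 for TXNRD2, −0.399 to 0.0619 for SELENOF and −0.291 to 0.0794 for SELENOS. Density changes ranged from −0.267 to 0.053 for GPX4, −0.515 to 0.209 for TXNRD2, −0.302 to 0.251 for SELENOT, −0.274 to 0.224 for SELENOF, −0.0323 to 0.392 for SELENOS, −0.144 to 0.0978 for SELENOW and −0.856 to 0.462 for SEPHS2. TXNRD2 density ranged from −0.127 to 0.546 in DMSO and −0.142 to 0.232 in trametinib. The median SE over all genes was 0.27 log2 in the density change, 0.22 in input and 0.15 in footprints. The part of input depth in this was not tested.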
